A study of Homo sapiens with 14 samples.

Results

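The interferon-stimulated genes examined here are 38 protein-coding genes named as a module, out of 20033 protein-coding genes in the GENCODE annotation. The choice of members used no accessibility value, but it was made with earlier results of these data known. All 38 were found in the annotation and all were searched in both lists described below. Their accessible regions were read from 2 lists of reference peaks from Omni-ATAC, which tags accessible DNA with a transposase. The lists belong to the established lines MM.1S and RPMI8226, both derived from multiple myeloma (MM). Cells of each line were cultured alone (MONO) or with HS5, a human line of bone marrow stroma. Cocultured cells came from the upper transwell (TSW), reached by soluble factors only, or from the lower chamber (CO), in contact with HS5. The study describes its libraries as made from sorted cells, with the sort set for CD90- CD38+ cells. The MM.1S list was built from 9 libraries (3 MONO, 3 TSW and 3 CO) and the RPMI8226 list from 5 (1 MONO, 2 TSW and 2 CO).

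Interferons are secreted proteins that bind cell surface receptors and activate receptor kinases, which for interferon alpha are JAK1 and TYK2. These phosphorylate STAT proteins such as STAT2, which joins IRF9 in a complex that binds the interferon-stimulated response element (ISRE) at the promoters of antiviral genes. Interferon gamma acts through a different element, the gamma-activated site (GAS). Interferon alpha slows the growth of MM cells and was formerly used in MM treatment.

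Each reference peak carries a whole number, read here as support, the number of libraries of the line in which the authors called that peak. No peak in either list had a support below 3. Support and peak width are the only values for a peak, and both pool the 3 culture conditions, so no difference between MONO, TSW and CO could be tested. A support of at least 7 of 9 in MM.1S can only be reached with libraries of all 3 conditions. In RPMI8226 only the full support of 5 requires the lone MONO library. The list of MM.1S held 72802 peaks with a median width of 536 bp and that of RPMI8226 held 79969 peaks with a median of 362 bp, so widths and counts are read beside those of all genes in the same list. All 8 plasma cell markers had a promoter peak in both lists, although the best support of SLAMF7 in RPMI8226 was 4. Of 8 stromal markers, 5 had one in both lists, while LUM, POSTN and THY1, which encodes the CD90 antigen used in the sort, had none. Among those 5, COL1A1 and PDGFRB reached full support in both lists. For comparison, 76.8% (MM.1S list) and 71.8% (RPMI8226 list) of all protein-coding genes carried a promoter peak. The marker counts were thus not read as a measure of purity. The study notes that a small share of HS5 cells stayed among the sorted CO cells, and its part in any peak was not tested.

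The ISRE matches near the members' start sites are described first, with example sequences. The ISRE was searched on both strands as TTTCNNTTTC, which reads GAAANNGAAA on the other strand (N is any base), from 250 bp before to 50 bp after the canonical start site of each gene. A match was found in 24 of 38 members (63.2%, 95% Wilson interval 47.3 to 76.6), against 3.28% of all protein-coding genes in the same window. The 24 were ISG15, USP18, HERC5, IFIT1, IFIT2, IFIT3, IFIT5, OAS2, OAS3, EIF2AK2, ADAR, GBP1, IFIH1, DDX60, PARP9, DTX3L, RSAD2, BST2, IFI6, IFI27, IFI44, IFI44L, SAMD9 and LGALS3BP. Below, the sequence is given 5′ to 3′ along the gene's strand in hg38, with the match in capitals and its flanks in lower case. ISG15, IFIT1 and RSAD2 are shown as matches inside a peak in both lines, with the shared element of DTX3L and PARP9 and the repeated element of IFI44L. IFIT3 is shown as covered in RPMI8226 alone, and IFI27 and LGALS3BP as covered in neither line.
ISG15 (chr1:1013369-1013414, + strand): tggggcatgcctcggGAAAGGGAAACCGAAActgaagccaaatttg
IFIT1 (chr10:89392492-89392531, + strand): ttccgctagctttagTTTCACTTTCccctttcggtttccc
RSAD2 (chr2:6877617-6877656, + strand): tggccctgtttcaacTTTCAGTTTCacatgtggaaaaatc
DTX3L (chr3:122564317-122564356, + strand): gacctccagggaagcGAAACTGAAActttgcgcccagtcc
IFI44L distal copy (chr1:78620269-78620308, + strand): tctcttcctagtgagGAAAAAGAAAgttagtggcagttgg
IFI44L proximal copy (chr1:78620360-78620399, + strand): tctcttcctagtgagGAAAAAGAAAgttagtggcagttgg
IFIT3 distal match (chr10:89327826-89327865, + strand): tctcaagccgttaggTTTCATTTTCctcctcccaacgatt
IFIT3 proximal match (chr10:89327860-89327899, + strand): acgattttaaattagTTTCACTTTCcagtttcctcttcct
IFI27 (chr14:94110613-94110652, + strand): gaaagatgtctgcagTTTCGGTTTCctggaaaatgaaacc
LGALS3BP (chr17:78979957-78979996, - strand): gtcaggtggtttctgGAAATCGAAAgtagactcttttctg
The match of ISG15 is a run of 2 overlapping matches. The IFI44L copies are identical over all 40 bases shown and lie 91 bp apart, at -164 and -73 bp from the start site. The IFIT1 and IFI27 stretches each hold a second match in the lower-case flank, at -103 bp and -174 bp.

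Most interferon-stimulated genes had accessible promoters in both lines. A promoter peak, meaning a peak within 2500 bp of any annotated start site of the gene, was present in 36 of 38 members in MM.1S (94.7%, 95% Wilson interval 82.7 to 98.5) and in 35 of 38 in RPMI8226 (92.1%, 79.2 to 97.3). Among all protein-coding genes the shares were 76.8% and 71.8%. Members had a median of 8.5 annotated start sites and all genes a median of 5, so more windows were searched per member. With the canonical start site alone, 1 site per gene, that site lay inside a peak in 34 members in MM.1S (89.5% against 62.1%) and in 33 in RPMI8226 (86.8% against 53.9%). The intervals here cover counting error over genes only, and no test against other genes was made.

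**Figure D1:**
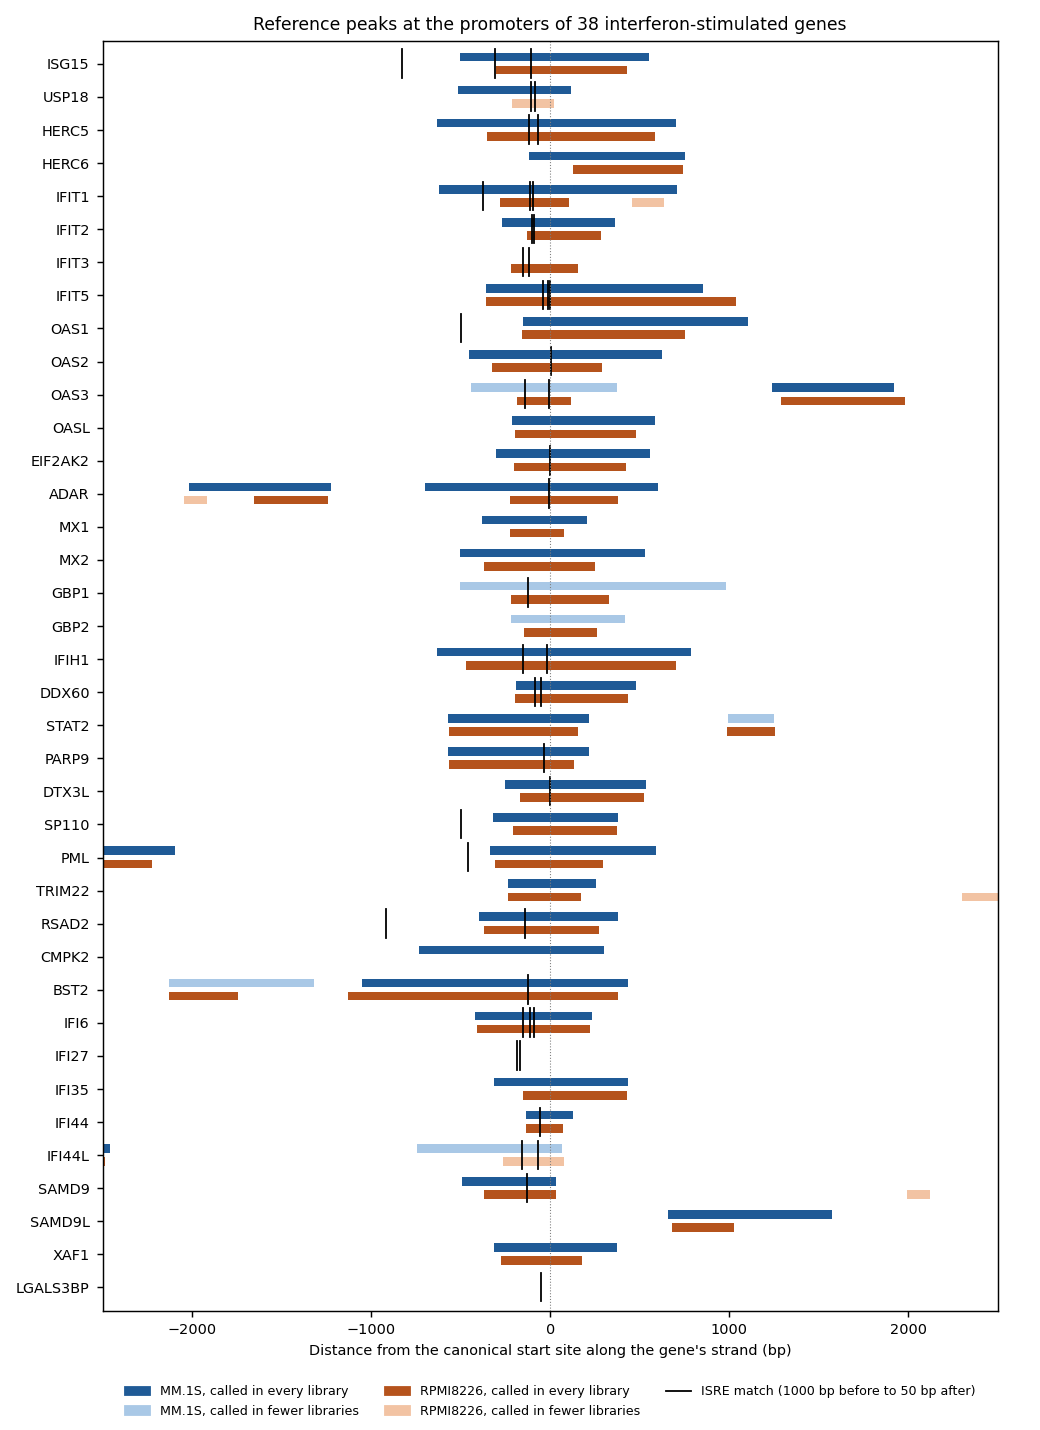
Reference peaks around the canonical start site of each of the 38 members, with distance from that site along the gene's strand in bp on the x axis and 1 gene per row. Blue bars are MM.1S peaks and orange bars RPMI8226 peaks, and pale bars are peaks called in fewer than all libraries of the line. Black ticks are ISRE matches from 1000 bp before to 50 bp after the start site. That window is wider than the 250 bp before it used for the count of 24 members, and 27 members have a match in it. Bars straddle the start site in most rows, while IFI27 and LGALS3BP have ticks and no bar, and IFIT3 has an orange bar alone.

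These peaks recurred across libraries. In both lines, 34 of 38 members (89.5%) had a promoter peak called in every library, against 69.2% of all genes in MM.1S and 66.5% in RPMI8226. In MM.1S, all 36 members with a promoter peak had 1 with a support of at least 7, so that MONO, TSW and CO libraries each contributed to it (94.7% of members, against 73.4% of all genes). Promoter peaks were present in both lines in 35 members (92.1% against 68.6%), and 32 members had promoter peaks called in every library of both lines (84.2% against 62.0%). CMPK2 alone had a promoter peak in MM.1S only, where 8.19% of all genes did. No member had a promoter peak in RPMI8226 only, where 3.21% of all genes did, and 2 members had none in either line, where 20.0% of all genes had none.

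**Figure D2:**
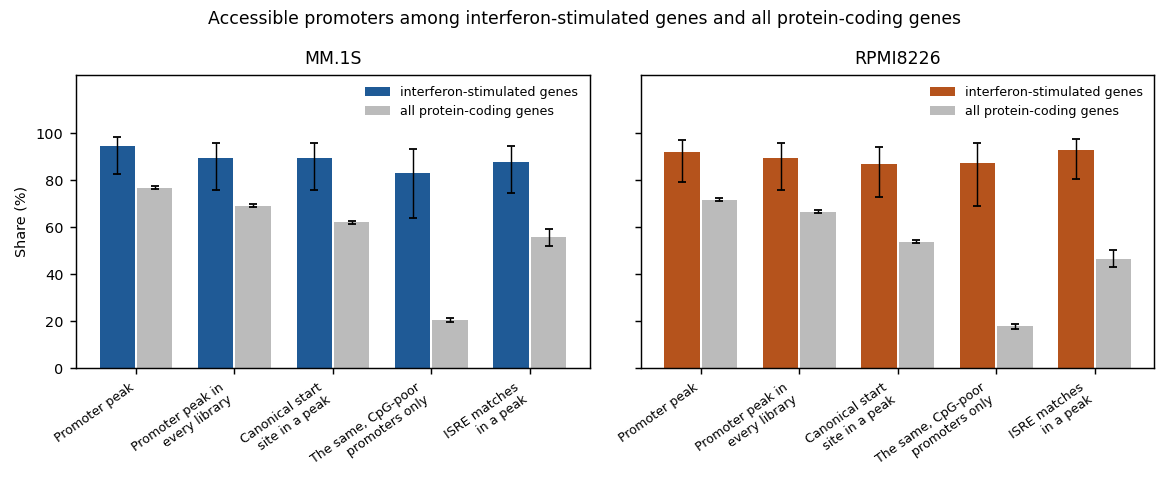
Shares, in percent, of members (coloured) and of all protein-coding genes (grey) for each measure on the x axis, in MM.1S on the left and RPMI8226 on the right. Bars start at 0 and lines are 95% Wilson intervals over genes or matches, which cover counting error only. The pairs of bars differ most for canonical start sites in CpG-poor promoters, at 83.3% against 20.6% in MM.1S and 87.5% against 17.9% in RPMI8226.

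The ubiquitin-like modifier genes had a promoter peak in both lines in all 4 cases. ISG15 encodes a ubiquitin-like protein that is joined to other proteins, and its canonical start site lay in a 1057 bp peak with a support of 9 in MM.1S and a 727 bp peak with a support of 5 in RPMI8226. RPMI8226 held 3 further ISG15 promoter peaks that MM.1S lacked, near an alternative start site and at least 11421 bp upstream of the canonical site, the widest of 884 bp. HERC5, the ligase that attaches ISG15, had peaks of 1334 bp and 938 bp, each called in every library. HERC6, a relative of HERC5, had peaks of 872 bp and 615 bp, and in RPMI8226 that peak began 128 bp downstream of the canonical start site. USP18 removes ISG15 and restrains receptor signalling. Its promoter peak was 635 bp wide with a support of 9 in MM.1S and 235 bp wide with a support of 4 in RPMI8226, the only member whose best RPMI8226 promoter peak was missing from a library.

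The IFIT family, whose proteins bind viral RNA, included a difference between the lines at a canonical start site. The canonical start site of IFIT3 lay in a 374 bp peak (chr10:89327779-89328152) called in all 5 RPMI8226 libraries. No MM.1S reference peak overlapped it, and the nearest in MM.1S began 4210 bp downstream, with a width of 592 bp and a support of 8. Both ISRE matches of IFIT3 lay within the RPMI8226 peak and outside every MM.1S peak. MM.1S nevertheless held 3 IFIT3 promoter peaks at alternative start sites, 461 bp wide with a support of 9, 592 bp with 8 and 198 bp with 4, and each overlapped an RPMI8226 peak. IFIT1 had a 1329 bp peak in MM.1S, which spanned a 386 bp and a 182 bp peak in RPMI8226 with supports of 5 and 3. IFIT2 had peaks of 632 bp and 410 bp, and IFIT5 of 1214 bp and 1399 bp, each called in every library.

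**Figure D3:**
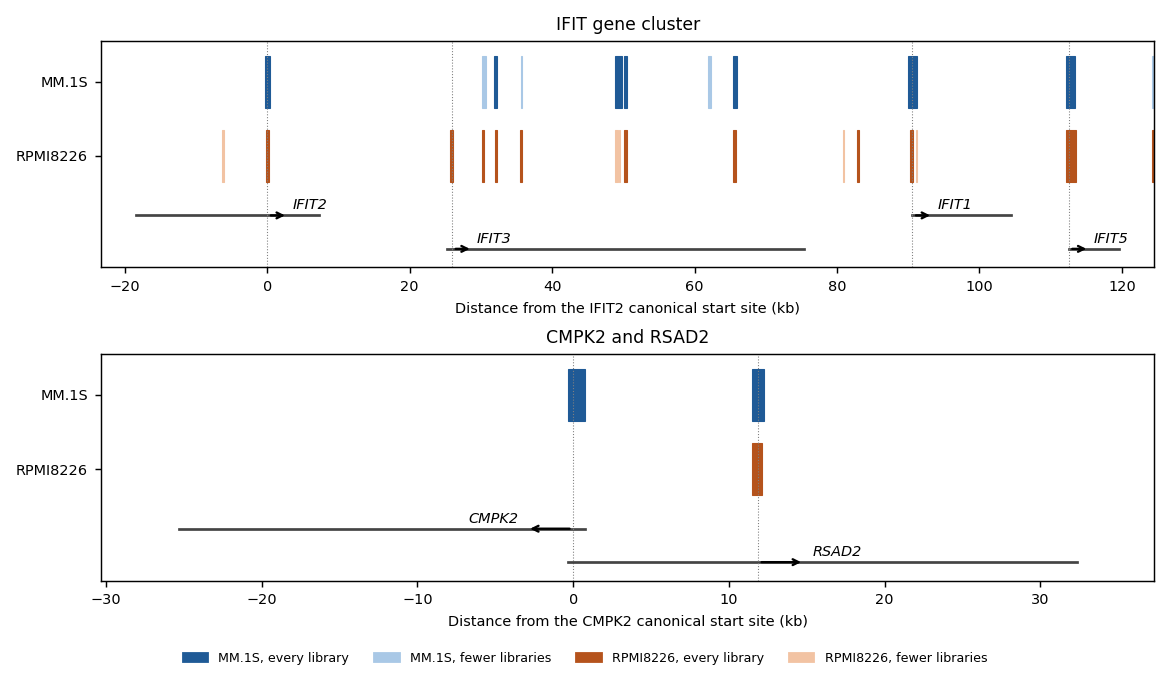
Reference peaks over the IFIT gene cluster (upper panel, distance from the IFIT2 canonical start site in kb) and over CMPK2 and RSAD2 (lower panel, distance from the CMPK2 canonical start site in kb). Blocks are peaks, pale where called in fewer than all libraries of the line, grey lines are gene bodies, arrows give the direction of transcription and dotted lines mark canonical start sites. The IFIT3 start site carries a block in RPMI8226 and none in MM.1S, and the CMPK2 start site the reverse.

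The genes for enzymes that act on double-stranded RNA had promoter peaks called in every library of both lines in all 6 cases. OAS1, OAS2 and OAS3 make oligoadenylates that activate RNase L, and OASL is a relative without that activity. Peaks over the canonical start sites were 1252 bp and 911 bp wide for OAS1 in MM.1S and RPMI8226, 1079 bp and 614 bp for OAS2, and 800 bp and 674 bp for OASL. OAS3 had 814 bp with a support of 8 and 304 bp with a support of 5, beside a second peak 1236 bp downstream in MM.1S with full support. EIF2AK2, the kinase PKR, which halts translation on sensing double-stranded RNA, had peaks of 860 bp and 628 bp. ADAR edits adenosines in double-stranded RNA, and its canonical start site lay in peaks of 1304 bp and 601 bp. ADAR held 6 promoter peaks in RPMI8226 and 3 in MM.1S, and 2 of the 6 had no counterpart in MM.1S.

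Among the GTPase genes, the guanylate-binding members were called in fewer MM.1S libraries. GBP1, which coats intracellular pathogens, had a single promoter peak of 1490 bp with a support of 8 of 9 in MM.1S and of 548 bp with a support of 5 of 5 in RPMI8226. GBP2, its paralog, had 636 bp with a support of 8 and 403 bp with a support of 5. A support of 8 leaves 1 MM.1S library without the peak, and the lists do not say which. Over all genes, 72.0% of distinct MM.1S promoter peaks had full support. By the study's read totals, 1 MONO library of MM.1S was far shallower than the others, and its part was not tested. MX1 and MX2, which encode dynamin-like proteins that trap viral components, had full support in both lines, at 584 bp and 303 bp over the MX1 start site and at 1036 bp and 620 bp for MX2.

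The RNA sensing helicases IFIH1, the sensor MDA5, and DDX60 had full support. IFIH1 had among the widest promoter peaks in both lines, at 1419 bp and 1175 bp, and DDX60 peaks of 668 bp and 635 bp were almost equal in width. Of the signalling and nuclear body genes, all 6 had full support in both lines. STAT2, which acts with IRF9, had 785 bp and 720 bp. PARP9 and DTX3L, whose products form a complex of an ADP-ribosyltransferase relative and a ubiquitin ligase, start within 1000 bp of each other on opposite strands and share 1 promoter peak of 784 bp in MM.1S and 696 bp in RPMI8226. They are the only members whose canonical start site has another protein-coding canonical start site that close. The ISRE printed for DTX3L is also that of PARP9. The nuclear body genes SP110 and PML had peaks of 694 bp and 579 bp and of 926 bp and 600 bp over their canonical start sites. SP110 also had a 1317 bp peak at an alternative start site in MM.1S, which spanned RPMI8226 peaks of 463 bp and 250 bp. TRIM22, an antiviral ubiquitin ligase, had 491 bp and 405 bp.

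CMPK2 and RSAD2 are adjacent genes on chromosome 2. CMPK2 encodes a mitochondrial nucleotide kinase, and its start site lay in a 1034 bp peak called in all 9 MM.1S libraries (chr2:6865605-6866638). RPMI8226 had no peak within the promoter windows of CMPK2, and the nearest peak to its start site was that of RSAD2, 11501 bp away. RSAD2, which encodes viperin, an enzyme that makes a chain-terminating nucleotide, had a canonical peak in both lines, of 781 bp in MM.1S and 639 bp in RPMI8226, both with full support. Since an alternative RSAD2 start site lies near that of CMPK2, the 1034 bp peak counts for both genes. BST2, or tetherin, which holds budding virions at the membrane, had 1484 bp and 1506 bp, the widest promoter peak of any member in RPMI8226.

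The remaining 9 genes held both members without a promoter peak. IFI27, a mitochondrial protein gene with strong interferon induction, had none in either line. Its start site was 18316 bp from the nearest MM.1S peak and 13001 bp from the nearest RPMI8226 peak, both downstream, although the gene carries 2 ISRE matches. LGALS3BP encodes a secreted glycoprotein and also had none, with the nearest peaks 5981 bp and 6151 bp upstream, called in every library of their line. SAMD9L, an antiviral gene that restrains growth, had full-support promoter peaks of 919 bp and 351 bp that began 656 bp and 678 bp downstream of its canonical start site. Its neighbour SAMD9 had 523 bp and 403 bp over the start site. IFI44L differed from most members in that its start site peak was not called throughout, with 814 bp and a support of 7 in MM.1S and 339 bp and a support of 4 in RPMI8226. Its full-support promoter peaks, of 353 bp and 329 bp, lay 2461 bp and 2485 bp upstream of that site. IFI44 had a lone promoter peak in each line, of 261 bp and 209 bp and called in every library, and its widest promoter peak was thus the narrowest among members in both lines. IFI6, a mitochondrial survival gene, had 651 bp and 630 bp, IFI35 had 748 bp and 584 bp, and XAF1, which antagonizes the apoptosis inhibitor XIAP, had 687 bp and 450 bp, all with full support.

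Width was compared with that of all genes by the widest promoter peak of each gene. The widest promoter peak per member had a median of 866 bp in MM.1S (95% interval 784 to 1036 bp, n = 36) and 620 bp in RPMI8226 (548 to 693 bp, n = 35). The medians of all genes with a promoter peak were 1047 bp and 761 bp. Over all distinct promoter peaks the medians lay closer, at 800 bp (687 to 877 bp) for members against 804 bp for all genes in MM.1S and at 451 bp (390 to 600 bp) against 523 bp in RPMI8226. For the peak over the canonical start site, a measure added later, the medians stayed apart. In MM.1S it was 807 bp (694 to 1036 bp, n = 34) for members against 1067 bp for all genes. In RPMI8226 it was 601 bp (410 to 639 bp, n = 33) against 797 bp. By the widest promoter peak, the median member stood at the percentile 30.8 of all genes in MM.1S and 33.3 in RPMI8226. The 5 widest were GBP1, BST2, IFIH1, HERC5 and IFIT1 in MM.1S, from 1490 bp down to 1329 bp, and BST2, IFIT5, IFIH1, ADAR and HERC5 in RPMI8226, from 1506 bp down to 938 bp. IFI44 stood at the percentile 0.553 in MM.1S with a support of 9.

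**Figure D4:**
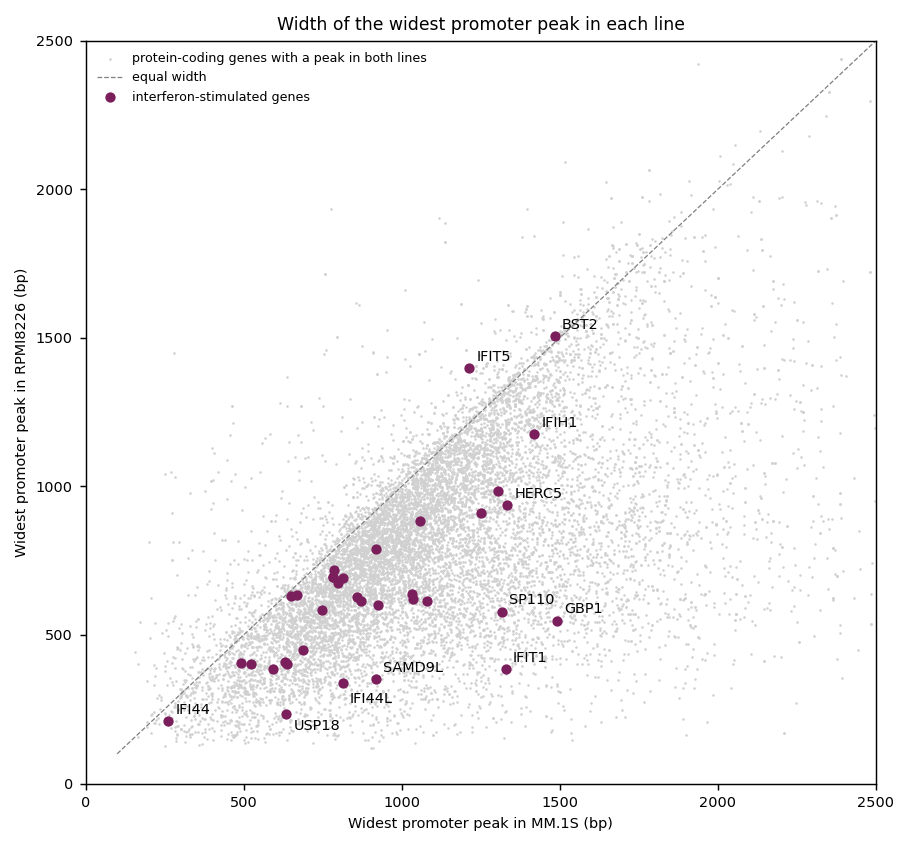
Width of the widest promoter peak of each gene in MM.1S (x axis, bp) and RPMI8226 (y axis, bp), for the 35 members with a promoter peak in both lines (purple) and for all such protein-coding genes (grey). The dashed line marks equal width, and peaks wider than 2500 bp lie outside the axes. All members except IFIT5 and BST2 lie below the line, in the same region as most other genes.

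The widest promoter peak was wider in MM.1S in 33 of 35 members (94.3% against 89.5% of all genes), with a median ratio of 1.37 against 1.29 for all genes. The share was thus near that of the lists as a whole. The largest differences were at IFIT1, with 1329 bp against 386 bp, at GBP1, with 1490 bp against 548 bp, at SP110, with 1317 bp against 579 bp, at SAMD9L, with 919 bp against 351 bp, and at IFI44L, with 814 bp against 339 bp. For SP110 the widest peaks lay at different start sites in the 2 lines. Over the canonical start site, which compares the same place, the peak was wider in MM.1S in 30 of 32 members (93.8% against 90.1%), again with a median ratio of 1.37, against 1.25 for all genes. The exceptions were IFIT5 and BST2 under both measures. How boundaries were joined across 9 or 5 libraries cannot be told apart from a difference between the lines.

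Of the 49 distinct promoter peaks of members in MM.1S, 47 overlapped an RPMI8226 peak (95.9%, 95% Wilson interval 86.3 to 98.9), against 74.1% of promoter peaks of all genes. The exceptions were the CMPK2 peak and an 877 bp MX2 peak near an alternative start site, with a support of 8. In RPMI8226, 50 of 59 overlapped an MM.1S peak (84.7%, 73.5 to 91.8), near the 81.3% of all genes. The 9 without a counterpart belonged to ISG15 (3), ADAR (2), IFIT3, MX2, TRIM22 and SAMD9, and that of IFIT3 alone covered a canonical start site. Full support was found in 38 of 49 (77.6% against 72.0%) and 51 of 59 (86.4% against 77.1%). A support low enough to lack every MONO library was found in 3 of 49 (6.12%, 2.10 to 16.5, against 14.6% of all genes' promoter peaks) and in 8 of 59 (13.6%, 7.03 to 24.5, against 22.9%). In RPMI8226, with its lone MONO library, these are the same peaks that lacked full support, so the value is not a separate result.

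The motif content of these promoters was compared with the same window in all genes. Besides the ISRE, the GAS was searched as TTCNNNGAA, the ETS-IRF composite as GGAANNGAAA and AP-1 as TGANTCA, on both strands, and matches of different motifs may overlap. The GAS was found in 7 members (18.4% against 6.49%), the ETS-IRF composite in 7 (18.4% against 2.58%) and AP-1 in 6 (15.8% against 5.44%). BST2 held 2 GAS matches beside 2 overlapping ISRE matches. Of the members without an ISRE match in this window, OAS1, SP110 and PML had a match further upstream, at -501, -502 and -463 bp, and none of those 3 lay in a peak of either line. Many members have low CpG content, in that 24 of 38 (63.2% against 32.6%) had an observed over expected CpG ratio under 0.6, with a median of 0.412 against 0.775. The CpG-poor members had a promoter peak in 22 of 24 cases in both lines (91.7%, 95% Wilson interval 74.2 to 97.7), against 48.5% of CpG-poor promoters in MM.1S and 45.1% in RPMI8226. Their canonical start site lay inside a peak in 20 of 24 in MM.1S (83.3%, 64.1 to 93.3, against 20.6%) and in 21 of 24 in RPMI8226 (87.5%, 69.0 to 95.7, against 17.9%).

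The 24 members with an ISRE held 41 matches, counting overlapping ones separately and a match shared by PARP9 and DTX3L as 1. Of these, 36 lay wholly in an MM.1S peak (87.8%, 95% Wilson interval 74.5 to 94.7) and 38 in an RPMI8226 peak (92.7%, 80.6 to 97.5). Over all genes, 55.7% and 46.7% of ISRE matches in the same window did. The canonical start site itself lay in a peak in 89.5% and 86.8% of members, against 62.1% and 53.9% of all genes. Whether the coverage of matches differs from that of the start sites beside them was not tested. The uncovered matches were the pair of IFI27 and the match of LGALS3BP in both lines, and the pair of IFIT3 in MM.1S. A peak over a match is a matter of accessibility and does not show that a factor was bound.

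Distal peaks overlap the gene body or its flanks of 20 kb and no annotated promoter. Members and all genes had a median of 1 in each line. No distal peak was found for 9 members in MM.1S (23.7% against 33.6%) and 8 in RPMI8226 (21.1% against 33.7%), and GBP2, IFI35, STAT2 and XAF1 had none in either line. OAS2 had the most in MM.1S, with 5 in each line. IFIT3 had the most in RPMI8226, with 6 there and 3 in MM.1S. MX1 had 3 and 4, PML and OAS3 4 and 4, and both IFIH1 and BST2 4 and 2. RPMI8226 had the higher number in 15 members (39.5% against 29.1%) and MM.1S in 7 (18.4% against 24.2%). The OAS genes lie side by side, so some distal peaks count for 2 of them.

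**Figure D5:**
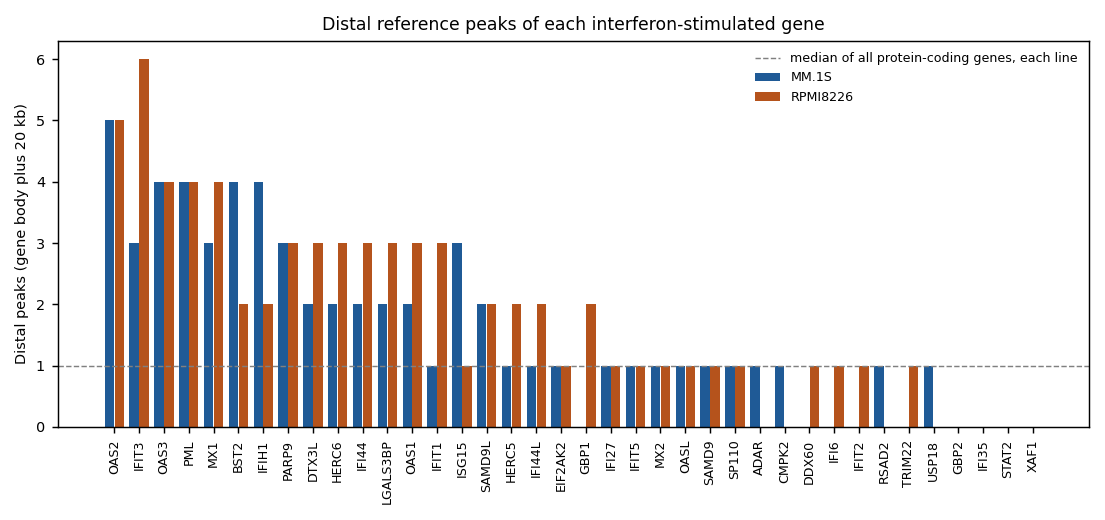
Number of distal reference peaks (y axis) of each member (x axis) in MM.1S (blue) and RPMI8226 (orange), ordered by the sum of both counts. The dashed line marks 1, the median of all protein-coding genes in each line. OAS2 has 5 in each line, IFIT3 has 3 and 6, and the 4 genes at the right end have none.

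The sharing and support of distal peaks were read beside those of all genes. Of 50 distinct distal peaks in MM.1S, 34 overlapped an RPMI8226 peak (68.0%, 95% Wilson interval 54.2 to 79.2, against 60.6%) and 21 had full support (42.0% against 43.2%). Of 57 in RPMI8226, 36 overlapped an MM.1S peak (63.2%, 50.2 to 74.5, against 56.3%) and 34 had full support (59.6% against 59.2%). These shares were near those of all genes. Support could lack every MONO library for 15 of 50 (30.0% against 32.9%) and 23 of 57 (40.4% against 40.8%). In RPMI8226 these 23 are the same peaks that lacked full support. Whether any such peak of either line was absent from MONO cannot be read from the lists. All 4 distal peaks of PML had full support in MM.1S and each overlapped a peak of RPMI8226, where 3 of the 4 counterparts had a support of 5 and the other of 4.

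An ISRE match lay in the central 200 bp of 8 of 50 distal peaks of members in MM.1S (16.0%, 95% Wilson interval 8.34 to 28.5) and 11 of 57 in RPMI8226 (19.3%, 11.1 to 31.3). Over all distal peaks the shares were 8.64% of 44290 and 7.47% of 51152. For AP-1 the shares were 14.0% against 12.4% in MM.1S and 15.8% against 21.1% in RPMI8226. The GAS was found in 10.0% against 5.78% in MM.1S and 10.5% against 5.95% in RPMI8226. The ETS-IRF composite was found in 4.00% against 4.12% and 5.26% against 5.17%. Full-support distal peaks with an ISRE in MM.1S were found 24121 bp and 39475 bp downstream of the IFIT3 start site (chr10:89352118-89352581 and chr10:89367472-89368060), 9649 bp downstream of that of OAS2 (chr12:112988168-112988550) and 34307 bp downstream of that of MX1 (chr21:41460546-41461678). Each overlapped an RPMI8226 peak. At MX1 the RPMI8226 counterpart (chr21:41460588-41460840, 253 bp, support of 4) did not reach the central 200 bp of the MM.1S peak, where the match lay. A peak 14285 bp upstream of the MX1 start site (chr21:41411480-41411954), which also counts for MX2, had a support of 4 in MM.1S, and its RPMI8226 counterpart of 591 bp had a support of 5.

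The upstream pathway was described from lists of genes. Their counts are read beside the 76.8% (MM.1S) and 71.8% (RPMI8226) of all genes with a promoter peak and the 69.2% and 66.5% with full support. Of 21 genes for interferons themselves, 5 had a promoter peak in MM.1S and 3 in RPMI8226, and full support was found in none of MM.1S and 1 of RPMI8226, IFNE. None of the interferon alpha genes, nor IFNB1 or IFNG, had a promoter peak in either line. Reads with several matches in the genome were left out by the authors, and the part this had at the near-identical interferon alpha genes was not tested. The receptor genes, among them IFNAR1, IFNAR2 and IFNGR1, had full-support promoter peaks in 6 of 6 cases in both lines. The same held for 7 of 7 inhibitors, among them SOCS1. The kinase gene TYK2 had promoter peaks of 873 bp in MM.1S and 797 bp in RPMI8226, and IRF9 of 850 bp and 888 bp, all with full support. Of 15 nucleic acid sensors and adaptors, 14 had a promoter peak in MM.1S and 13 in RPMI8226. TLR8 had none, and TLR3 had a 699 bp peak with a support of 8 in MM.1S alone.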

How the data were processed

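The authors' reads were paired-end Omni-ATAC reads aligned to hg38 with Bowtie2 and called per library with MACS3, tools that the submitters' processing notes also name. Per the study's methods, multi-mapped reads were left out, 1 read was kept per position, and a peak entered a line's list when present in at least 3 libraries. The calling threshold, the joining of boundaries and any transposase offset shift are not given in the sources used here. The 2 deposited lists hold a chromosome, start, end and an unnamed whole number, a unit other than reads, read as the number of libraries with the peak (support) and not normalized by the authors. Its lowest value, 3, was the stated minimum and its highest the number of libraries. Starts were read as counted from 0 and printed from 1. The lists hold no read count. The study gives read totals per library in its supplement, which differ between libraries and entered no count here. The precision that depth gives could thus not be carried to a peak. There were 0 other columns of sample values to leave out.

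Samples were grouped by line and condition from their titles, 14 libraries in all. Start sites, canonical transcripts and gene bodies were those of GENCODE release 44 (the study's own annotation was RefSeq), and sequences from the hg38 genome of the same build. Sharing required an overlap of 1 bp. Shares carry 95% Wilson intervals and medians 95% order-statistic intervals over genes, peaks or matches, which cover counting error only. Each line has 1 list without replicates, so no test was made. Members and gene lists were chosen with earlier results of these data known. Members were named in full where they lacked a promoter peak or full support, held the 5 widest peaks, the 5 highest distal counts or the 5 largest width differences, or carried an ISRE. A few further values were named after they were seen, to account for every member. No member's start region had a copy elsewhere of at least 1000 bp and 95% identity (minimap2 2.31-r1302). The overlap and motif code was tested on simulated data (Python 3.11.15, NumPy 2.4.6, SciPy 1.17.1). A further list of pathway genes and a sequence are not reported here. Alternatives changed the promoter window, flank, start sites, support minimum, peak width, overlap and motif window.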

Additional observations from a re-analysis of the deposited data

How the results depend on the processing

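With other settings, 67 values kept within their interval or within 1.5 times the count and 19 did not. The counts of members with a promoter peak, with full support, with an ISRE match and with a wider peak in MM.1S were among those that kept, as were both median widths. A measure over the canonical start site, 30 of 32 wider in MM.1S, was added after the data were seen. Where an overlap of at least 50% of both peaks was required, sharing of promoter peaks fell to 77.6% (MM.1S) and 64.4% (RPMI8226) and that of distal peaks to 54.0% and 45.6%. With a window of 1000 bp, 93.5% of RPMI8226 promoter peaks were shared. The median number of distal peaks became 3 in both lines with a flank of 50 kb or with the gene's own promoters alone left out, and 0 in both lines with wide peaks only. With full-support peaks only it was 0 in MM.1S and 1 in RPMI8226. Counted as peaks per 100 kb it was 1.67 in MM.1S and 2.15 in RPMI8226. Sharing of MM.1S distal peaks was 79.4% with a flank of 10 kb and 81.0% for full-support peaks. ISRE matches inside a peak fell to 56.8% in both lines when 2500 bp on either side was searched. In RPMI8226 they fell to 79.2% when searched from 1000 bp before the start site and to 75.6% with wide peaks only. Wider windows and flanks add sequence by construction, and other causes were not tested. The shares and medians at these other settings are for members only. All genes were not set beside them, so whether the contrasts with all genes hold at these settings was not tested.

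No paired analysis was possible because the result comes from no test and the lists hold no value for a single library. Leaving out replicates was not possible for the same reason. Depth limits what a missing peak means, since libraries of unequal depth entered each list with no read count per peak. A region without a reference peak was not called in 3 libraries at their depth, which does not show it to be inaccessible.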

Other observations

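Members lie close together in the genome. With gene bodies within 100 kb of each other joined, 21 of 38 members fell into 9 clusters and 17 stood alone. The IFIT cluster, 138 kb on chromosome 10 with 4 members, held 10 reference peaks in MM.1S and 15 in RPMI8226, of which 7 and 10 had full support. The OAS cluster, 106 kb on chromosome 12 with 3 members, held 9 in each line, of which 7 in each overlapped a peak of the other line. The MX cluster, 108 kb on chromosome 21, held 7 and 9. The GBP1 and GBP2 pair, 98.6 kb on chromosome 1, held 2 peaks in MM.1S, neither called in every library, and 3 in RPMI8226, of which 2 were. The cluster counts mix promoter and distal peaks and were not compared with other loci. Over all genes, 72.0% of promoter and 43.2% of distal peaks had full support in MM.1S, and 77.1% and 59.2% in RPMI8226. Overlap with the other line was found in 74.1% and 60.6% in MM.1S, and in 81.3% and 56.3% in RPMI8226. Peaks within a cluster can count for more than 1 member and are not independent.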
